A study of Mus musculus with 13 samples.

Results

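The Hedgehog pathway genes described here are the receptor Ptch1, the signal transducer Smo, the co-receptors Cdon, Boc and Gas1, the transcription factors Gli1, Gli2 and Gli3, and the decoy receptor Hhip. They were chosen by name, and all 9 were present among the 32285 genes listed in each count matrix. Their transcripts were counted in single mouse mammary fibroblasts captured in droplets, with a kit that reads the 3′ end of each RNA. The 13 libraries fell into 9 groups. Wild-type C57BL/6 females gave 1 library each at puberty (4 weeks), as adult virgins (9 weeks), on day 14.5 of pregnancy, day 10 of lactation and day 4 of involution, and 2 libraries each after placebo or after MPA+E, which is medroxyprogesterone acetate with estrogen, both at 9 weeks. These libraries held stroma sorted as negative for CD24 and for lineage markers, with 2 females pooled per library. The other 4 libraries held GFP-positive cells of raGFP-Wnt1 females (Pdgfra-GFP KI/+ MMTV-Wnt1 T/+, mixed C57BL/6 and FVB background), in which the mammary tumour virus promoter drives Wnt1 and GFP marks cells that express Pdgfra. Hyperplasia 1 and tumour 1 came from 1 mouse of 45 weeks, and hyperplasia 2 and tumour 2 from another of 17 weeks. Hyperplasia and tumour therefore share the transgene and the reporter allele, and both differ from the wild-type libraries in strain, sort and age.

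In the absence of a Hedgehog ligand, PTCH1 holds SMO inactive and GLI proteins, above all GLI3, are processed into repressors. Binding of Sonic, Indian or Desert hedgehog to PTCH1, helped by the co-receptors, releases SMO at the primary cilium, and GLI2 then acts as an activator. Gli1, Ptch1 and Hhip are direct targets in many tissues, which makes their transcripts a common readout of pathway activity, and in the mammary gland the stroma is known to be the responding compartment.

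Fibroblast barcodes numbered 100523 in all and 4236 to 11951 per library, out of 5230 to 14424 deposited barcodes and 56551189 to 112550204 UMIs (unique molecular identifiers) per library. A fibroblast had 500 to 7500 genes, at most 10% mitochondrial UMIs, at least 50 UMIs of Dcn, Lum and Col1a2 together per 10000, and no UMI of Epcam, Pecam1, Rgs5, Sox10, Ptprc or Myog. Median depth ran from 3990 UMIs per fibroblast in pregnancy to 20256 in tumour 2. Fibroblasts with at least 10 Pi16 UMIs per 10000 were called Pi16-high, those among the rest with a UMI of at least 3 of Gdf10, Clec11a, Fmo2, F3, Meox2 and Vit were called adipogenesis-regulatory, and the remainder other fibroblasts. Levels are counts per 1000000 UMIs (CPM) of a class in a library. The 3′ counts of different genes were not set against each other.

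The Pi16-high state was checked against progenitor markers that the rule did not use. Dpp4, Sema3c, Cd55, Anxa3 and Cd34 were each higher in Pi16-high than in other fibroblasts in 9 of 9 wild-type and 4 of 4 raGFP-Wnt1 libraries. Their summed level in Pi16-high cells was 3984 to 5478 CPM in the wild-type libraries, against 903 to 1578 CPM in other fibroblasts. The markers fixed for the adipogenesis-regulatory state were the 6 genes of its rule, so that no independent check of that name was made. Tumour 2 stood apart, with a summed level of 887 CPM in only 266 Pi16-high cells. Between 32 and 199 barcodes per library met both state limits and were counted as Pi16-high. Libraries shared 5 to 51 barcodes per pair, at most 0.539% of the smaller library.

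Pi16-high cells made up 24.7% to 42.8% of fibroblasts in the wild-type libraries and adipogenesis-regulatory cells 3.34% to 17.7%. The raGFP-Wnt1 libraries held 19.1% and 25.1% Pi16-high cells in hyperplasia, 28.6% in tumour 1 and 6.28% in tumour 2. Cells that met the adipogenesis-regulatory rule were 16.7% and 12.7% in hyperplasia 1 and 2, 10.8% in tumour 1 and 21.9% in tumour 2. In the tumours this class went partly against its name, since its 6 genes summed to 477 to 586 CPM there and to 1123 to 1762 CPM in the wild-type libraries, and Gdf10, Fmo2 and Vit were as low as 43.2, 14.4 and 7.13 CPM in a raGFP-Wnt1 library against wild-type medians of 377, 342 and 122 CPM. Clec11a and F3 kept within their wild-type ranges, at 133 to 148 and 219 to 346 CPM in the raGFP-Wnt1 libraries against wild-type medians of 149 and 243 CPM. Meox2 was below every wild-type library, at 50.1 to 73.0 CPM against 76.2 to 162 CPM. All 6 genes are part of the rule, so that their levels in the class follow in part from how its cells were chosen. Outside the class, Clec11a was 33.7 to 101 CPM in other fibroblasts of raGFP-Wnt1 libraries, against 5.61 to 28.1 CPM in wild-type ones. It reached 205 CPM in Pi16-high cells of a raGFP-Wnt1 library. The class also depended on depth. With 2000 UMIs per cell it held 74 and 16 cells of tumour 1 and 2 in place of 965 and 929, against 247 and 245 in hyperplasia and 429 in puberty. In the tumours the name therefore stands only for cells that met the rule.

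In the GRCm38 annotation Ptch1 lies at chr13:63508328-63573598, Gas1 at chr13:60174405-60177365, Gli3 at chr13:15463235-15730026, Smo at chr6:29735503-29761365, Cdon at chr9:35421128-35507652, Boc at chr16:44485049-44558897, Gli1 at chr10:127329882-127341974, Gli2 at chr1:118834132-119053619 and Hhip at chr8:79965851-80058006. Of the 9 genes, 7 had an upstream sequence in the RefSeq promoter table of GRCm38.p6, and Gli1 and Boc are named only. The 250 bases before the transcript start are shown for the target genes with an entry, Ptch1 and Hhip, and for Gli2, whose upstream stretch alone among the 7 held the letters searched. The GLI-binding motif GACCACCCA and its shorter core ACCACCC were searched on both strands, and every match of the longer motif also holds the core. The capitals in the Gli2 sequence mark the core, which reads there as its reverse complement GGGTGGT and began 205 bases before the transcript start. The longer motif was found in 0.225% and the core in 3.92% of 32851 promoters of this length. A match is a run of letters and not evidence of binding.
Ptch1 (chr13:63565736-63565985, minus strand, inside an intron of longer annotated Ptch1 transcripts): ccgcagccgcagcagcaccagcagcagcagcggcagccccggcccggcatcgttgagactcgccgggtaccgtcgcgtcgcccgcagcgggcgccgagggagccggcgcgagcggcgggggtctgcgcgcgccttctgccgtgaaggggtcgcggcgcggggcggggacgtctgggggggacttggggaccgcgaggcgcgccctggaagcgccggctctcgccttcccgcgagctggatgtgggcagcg
Hhip (chr8:80058009-80058258, minus strand, upstream of the annotated gene): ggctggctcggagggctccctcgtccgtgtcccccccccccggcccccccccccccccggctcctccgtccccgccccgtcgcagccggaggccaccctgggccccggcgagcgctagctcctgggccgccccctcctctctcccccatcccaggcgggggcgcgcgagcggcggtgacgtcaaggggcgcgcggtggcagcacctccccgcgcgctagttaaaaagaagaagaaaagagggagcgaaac
Gli2 (chr1:119053620-119053869, minus strand, upstream of the annotated gene): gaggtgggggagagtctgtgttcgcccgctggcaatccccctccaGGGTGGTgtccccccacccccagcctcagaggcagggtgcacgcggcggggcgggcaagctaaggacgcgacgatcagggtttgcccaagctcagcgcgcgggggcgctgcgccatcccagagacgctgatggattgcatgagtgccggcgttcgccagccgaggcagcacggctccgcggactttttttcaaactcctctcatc
The GC content of these stretches was 78.4% for Ptch1, 76.0% for Hhip and 67.2% for Gli2, against a median of 52.4% over all promoters in the table.

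**Figure D1:**
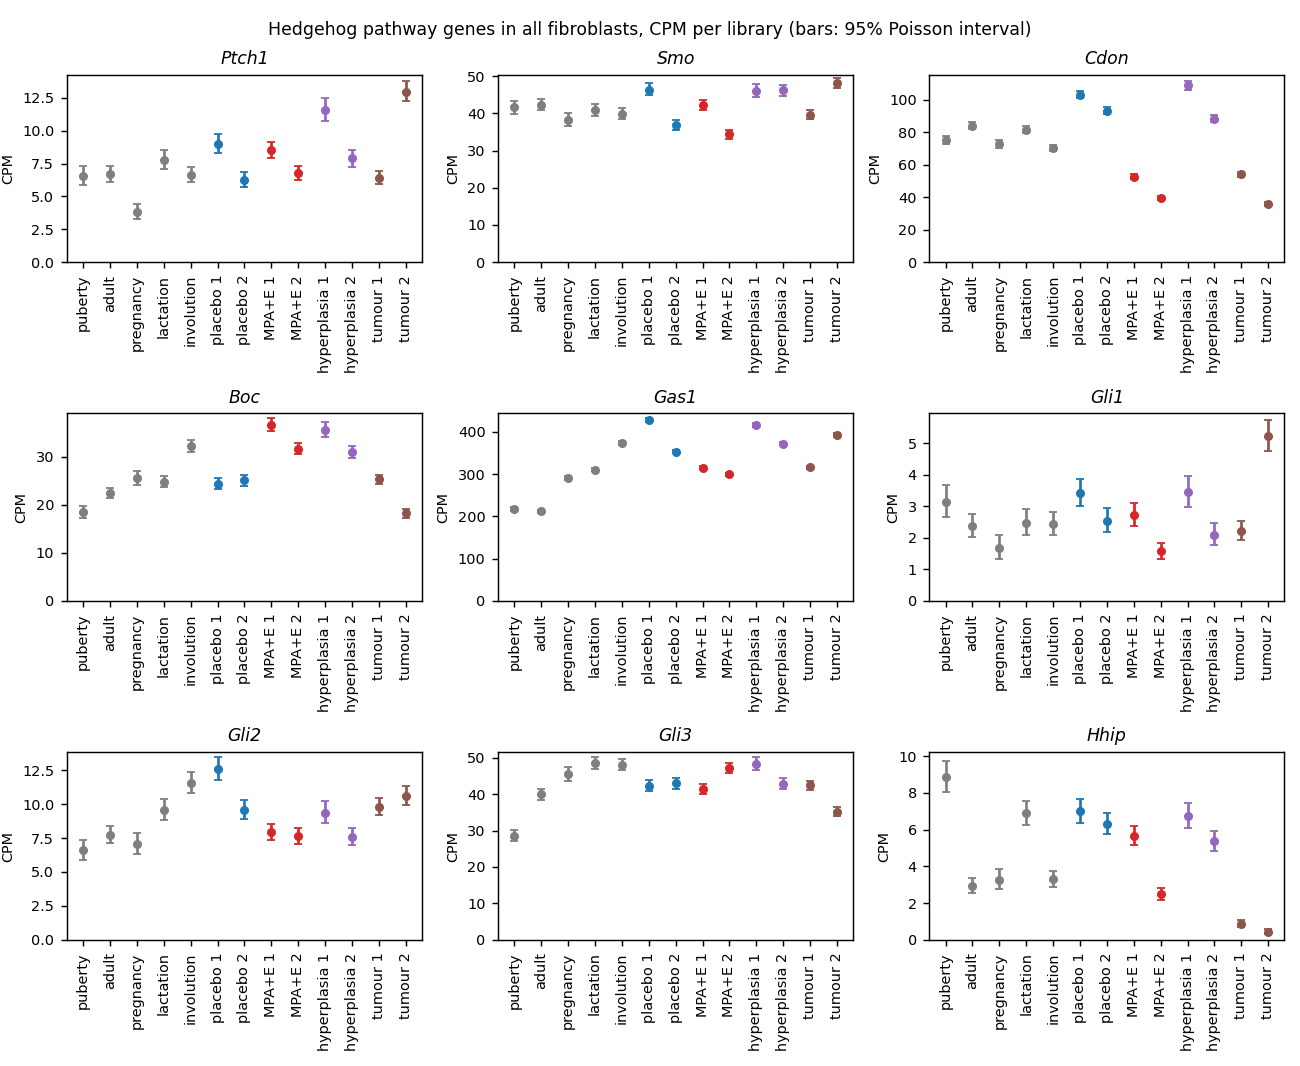
Level of each gene in all fibroblasts (CPM, linear axes from 0) in each of the 13 libraries, with 95% Poisson intervals that cover counting error only. Grey marks the 5 stages, blue placebo, red MPA+E, purple hyperplasia and brown tumour. Cdon is lower in the MPA+E and tumour libraries, Hhip is near 0 in both tumours, and Smo keeps within 34.4 to 48.2 CPM.

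Across all 13 libraries the targets varied more than the transducer. Hhip ranged from 0.422 CPM in tumour 2 to 8.87 CPM in puberty, a ratio of 21.0, whereas Smo, the membrane protein that passes the signal on, ranged from 34.4 to 48.2 CPM, a ratio of 1.40. Gli1 ranged from 1.57 to 5.22 CPM, Ptch1 from 3.79 to 13 CPM and Cdon from 35.8 to 109 CPM. The ranges of Gli2, Gli3, Boc and Gas1 each spanned a ratio of 1.70 to 2.01. Gli1 rested on 80 to 458 UMIs per library and Gas1 on 10625 to 34443, so that counting error is larger for Gli1.

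Whether the pathway genes change through development was examined over the 5 stages, which had 1 library each and therefore no replicate check. Intervals are exact 95% intervals of the counts and cover counting error only. Replicate libraries of the other groups differed by far more than that. The order of the stages below therefore describes these libraries and is not shown to hold between stages. Hhip was highest in puberty, at 8.87 CPM, and lowest in the adult, at 2.95 CPM, a ratio of 3.0 (2.55 to 3.55). In the other stages it was 6.89 CPM in lactation, 3.28 in pregnancy and 3.28 in involution. Adult did not differ from pregnancy beyond counting error, nor pregnancy from involution. Ptch1 was highest in lactation, at 7.78 CPM, and lowest in pregnancy, at 3.79 CPM, a ratio of 2.05 (1.73 to 2.45). These were the 2 genes of 9 whose highest stage was at least 2 times the lowest. The share of all genes that met this limit was not computed.

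Gli1, the activator that the pathway itself induces, was lowest in pregnancy, at 1.68 CPM, followed by the adult at 2.37, involution at 2.44, lactation at 2.48 and puberty at 3.14 CPM. Its highest stage was 1.87 times its lowest (1.41 to 2.48). In this order adult did not differ from involution beyond counting error, nor involution from lactation. Gli2 and the co-receptors Boc and Gas1 were all highest in involution. Gli2, the main activator, was 11.6 CPM in involution and 6.59 CPM in puberty, a ratio of 1.76 (1.55 to 2.01). Boc was 32.3 CPM against 18.4 CPM in puberty, a ratio of 1.75 (1.62 to 1.89), and Gas1 374 CPM against 212 CPM in the adult, a ratio of 1.76 (1.73 to 1.80). Gli3, the main repressor, was lowest in puberty, at 28.6 CPM, and highest in lactation, at 48.6 CPM, although lactation did not differ from involution beyond counting error. Smo and Cdon moved least, with ratios of 1.10 (1.04 to 1.17) and 1.20 (1.16 to 1.25). The state mix differed between these libraries, since adipogenesis-regulatory cells were 13.9% of fibroblasts in puberty and 3.34% in pregnancy. Pi16-high cells were 26.7% in involution and 39.1% to 42.8% in the other stages. The part of the state mix in these values was not tested.

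The ligands were all but missing from the fibroblasts. Shh had 2, Ihh 71 and Dhh 126 UMIs among 946368503 fibroblast UMIs. In barcodes of other cell types, pooled over the 13 libraries, Dhh was 193 CPM in 60 Schwann barcodes (58 UMIs), 3.49 CPM in 445 endothelial barcodes and 0.357 CPM in 611 epithelial barcodes, where Shh and Ihh had 2 and 1 UMIs. Desert hedgehog is the ligand known from Schwann cells. The libraries were sorted for stroma, and the ligands of the whole gland were not measured here.

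Gli1 and Hhip rested on few UMIs in the barcodes of other cell types. Gli1 had no UMI in Schwann and endothelial barcodes, for which a floor of 3 counts stands at 9.97 and 2.10 CPM, and it had 3 and 9 UMIs in epithelial and pericyte barcodes, or 0.536 and 1.75 CPM. Hhip had no UMI in epithelial barcodes and was 1.36 CPM in 1116 pericyte barcodes. By contrast Boc and Gas1 were 45.9 and 210 CPM in epithelial barcodes, Ptch1 was 28.6 CPM in endothelial ones, and Smo was 19.6 to 39.9 CPM in every other type but immune. In 21 immune barcodes Smo had 2 UMIs, under the floor of 3 counts. The share of background RNA and doublets in these barcodes was not estimated.

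**Figure D2:**
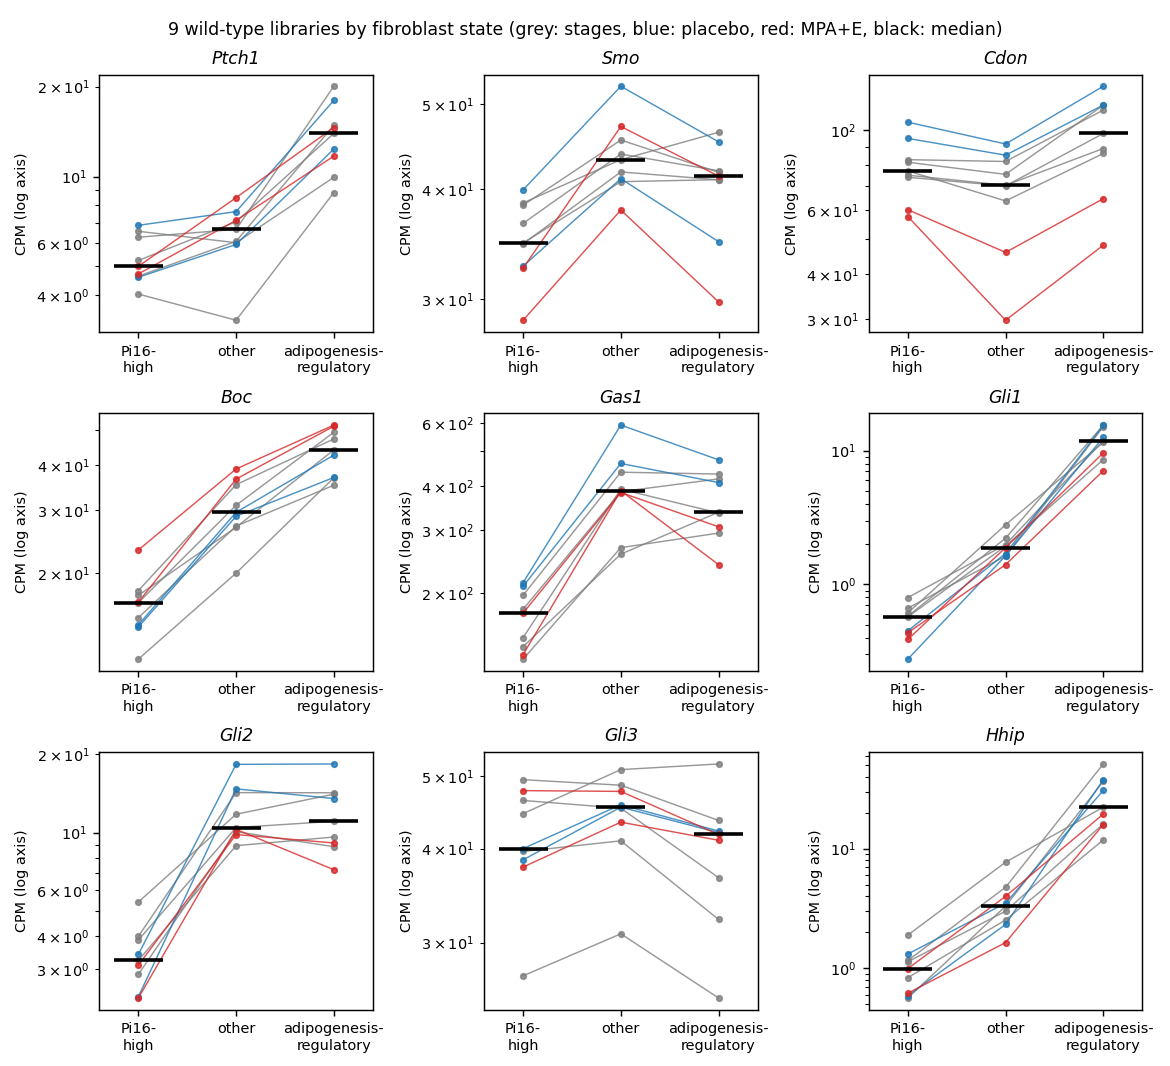
Level of each gene (CPM, log axes) in Pi16-high, other and adipogenesis-regulatory fibroblasts of the 9 wild-type libraries, one line per library, with the median in black. Gli1 and Hhip step up from Pi16-high through other to adipogenesis-regulatory cells in every line, Gli2 and Gas1 are lowest in Pi16-high cells in every line, and Cdon is lowest in other fibroblasts in every line.

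How the genes divide among fibroblast states was compared within the 9 wild-type libraries with the library as a block. Against other fibroblasts, the adipogenesis-regulatory state had more of the targets Gli1, Hhip and Ptch1 and more of the co-receptors Boc and Cdon, whereas Smo, Gas1, Gli2 and Gli3 differed by no more than 0.10 on the log2 scale. Against the same cells, the Pi16-high state had less Gli1, Gli2, Hhip, Gas1 and Boc, slightly less Ptch1 and Smo, and slightly more Cdon. Gli1 and Hhip thus differed at both steps, and Gli2 and Gas1 only passed the test at the step between Pi16-high and other fibroblasts. A gene was called at a Benjamini-Hochberg adjusted p under 0.05 over all genes tested. In the adipogenesis-regulatory comparison 5 of 9 were called, all higher, against 39.4% of 13888 genes called (19.3% higher and 20.1% lower). In the Pi16-high comparison 8 of 9 were called, 7 lower and 1 higher, against 60.9% of genes (31.9% higher and 29.0% lower).

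Among the targets, Gli1 in adipogenesis-regulatory cells ranged from 7.07 CPM in MPA+E 2 through a median of 11.9 to 15.5 CPM in puberty (mean 11.9 ± 3.09, SD, n = 9). In other fibroblasts it ranged from 1.40 through 1.88 to 2.79 CPM, and in Pi16-high cells from 0.276 through 0.572 to 0.798 CPM. No 2 states overlapped in Gli1. The log2 fold change was 2.66 ± 0.13 (SE) for adipogenesis-regulatory against other fibroblasts (adjusted p = 2.1e-12) and -1.85 ± 0.16 for Pi16-high against other (adjusted p = 1.6e-09). Adipogenesis-regulatory cells carried 27.4% to 72.2% of the Gli1 UMIs of a library and 3.34% to 16.0% of its fibroblast UMIs.

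Hhip in adipogenesis-regulatory cells ranged from 11.8 CPM in involution through 22.2 to 51.1 CPM in puberty, in other fibroblasts from 1.64 through 3.30 to 7.70 CPM, and in Pi16-high cells from 0.562 through 0.992 to 1.89 CPM. Its levels in adipogenesis-regulatory cells lay above all others, while Pi16-high and other fibroblasts overlapped slightly between libraries. The log2 fold changes were 2.92 ± 0.22 (adjusted p = 1.2e-08) and -1.80 ± 0.27 (adjusted p = 1.1e-05). Ptch1, the receptor and target, ranged from 8.83 through 13.9 to 20.1 CPM in adipogenesis-regulatory cells, from 3.30 through 6.65 to 8.5 CPM in other fibroblasts and from 4.04 through 5.0 to 6.86 CPM in Pi16-high cells. It rose by 1.13 ± 0.10 at the first step (adjusted p = 1.5e-08) and differed by -0.26 ± 0.09 at the second (adjusted p = 0.021), a call that was lost in the 5 stage libraries alone (-0.14, adjusted p = 0.44), at a Pi16 limit of 20 (-0.18, adjusted p = 0.13) and without the adult or the MPA+E 1 library (-0.23 and -0.20, adjusted p = 0.060 and 0.081).

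The co-receptors did not move as 1 group. Boc differed at both steps, at 0.58 ± 0.06 in adipogenesis-regulatory (adjusted p = 5.2e-08) and -0.87 ± 0.05 in Pi16-high cells (adjusted p = 6.2e-12). Gas1 was -0.07 ± 0.07 (adjusted p = 0.46) and -1.18 ± 0.07 (adjusted p = 5.1e-12). Cdon was higher than in other fibroblasts in both states, by 0.56 ± 0.07 (adjusted p = 6.6e-06) and 0.28 ± 0.07 (adjusted p = 0.0022), although the second call was lost in the 5 stage libraries alone (0.10, adjusted p = 0.13).

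Among the transcription factors, Gli2 was 2.32 to 5.42 CPM in Pi16-high cells, 8.91 to 18.3 CPM in other and 7.21 to 18.3 CPM in adipogenesis-regulatory fibroblasts. It fell by 1.81 on the log2 scale in Pi16-high cells (SE 0.11, adjusted p = 9.9e-12) and was 0.02 ± 0.11 in adipogenesis-regulatory cells (adjusted p = 0.92). Gli3 was -0.08 ± 0.04 and -0.10 ± 0.05, neither of which passed (adjusted p = 0.093 and 0.11).

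Pericyte markers were higher in the adipogenesis-regulatory state than in other fibroblasts, while the ranges of Schwann markers overlapped. The 5 pericyte markers summed to 58.7 to 136 CPM there and to 15.8 to 41.2 CPM in other fibroblasts, and the 5 Schwann markers to 32.7 to 60.9 CPM against 12.8 to 62.7 CPM. The defining genes Rgs5 and Sox10 were at 0 by the gate. Their part in the differences between states was not tested.

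Of the other pathway genes, 34 of a list of 41 were tested. In adipogenesis-regulatory cells 6 were higher and 10 lower, against 39.4% of all genes called. Ccnd2, a D-type cyclin, and Scube1, of a family that helps release the ligand, were lower by -0.66 ± 0.08 (adjusted p = 3.0e-06) and -1.88 ± 0.23 (adjusted p = 3.1e-06). Among the 7 tested genes listed as known targets, 3 were higher and only 1, Ccnd2, was lower. The median log2 fold change was -0.06 over the list, 0.56 over the 9 genes and -0.01 over all genes. In Pi16-high cells 14 of the list were higher and 11 lower, against 60.9% of all genes called. The medians there were 0.02 over the list, -0.87 over the 9 genes and 0.02 over all genes. Disp1, which exports the ligand from the cells that make it, rose by 1.35 ± 0.07 (adjusted p = 1.3e-13), whereas Scube1 and Scube2 were lower by -3.15 ± 0.22 (adjusted p = 8.3e-11) and -1.92 ± 0.19 (adjusted p = 7.6e-09).

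Genes whose pattern over the 3 states of all 13 libraries (39 sums, log2 CPM centred within each library) was most like a gene's own were sought among 7841 genes, as a description without a test. For Gli1 they were Adamts10, C2, Arhgdib and Cst3 (Pearson r 0.969, 0.967, 0.967 and 0.966), and for Hhip Arhgdib, Cst3, Ndrg2 and Spock2 (0.967 to 0.958). Ptch1 was nearest to Hspb2, C2, Adamts10 and Gata6 (0.929 to 0.915), and Gli2 to Lrrfip1, Apbb1ip, Gucy1b1 and Spry1 (0.981 to 0.977). Between the 9 genes the highest values were 0.979 for Gli1 with Hhip and 0.971 for Gas1 with Gli2. The sums share libraries and the 3 states were cut from the same cells.

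**Figure D3:**
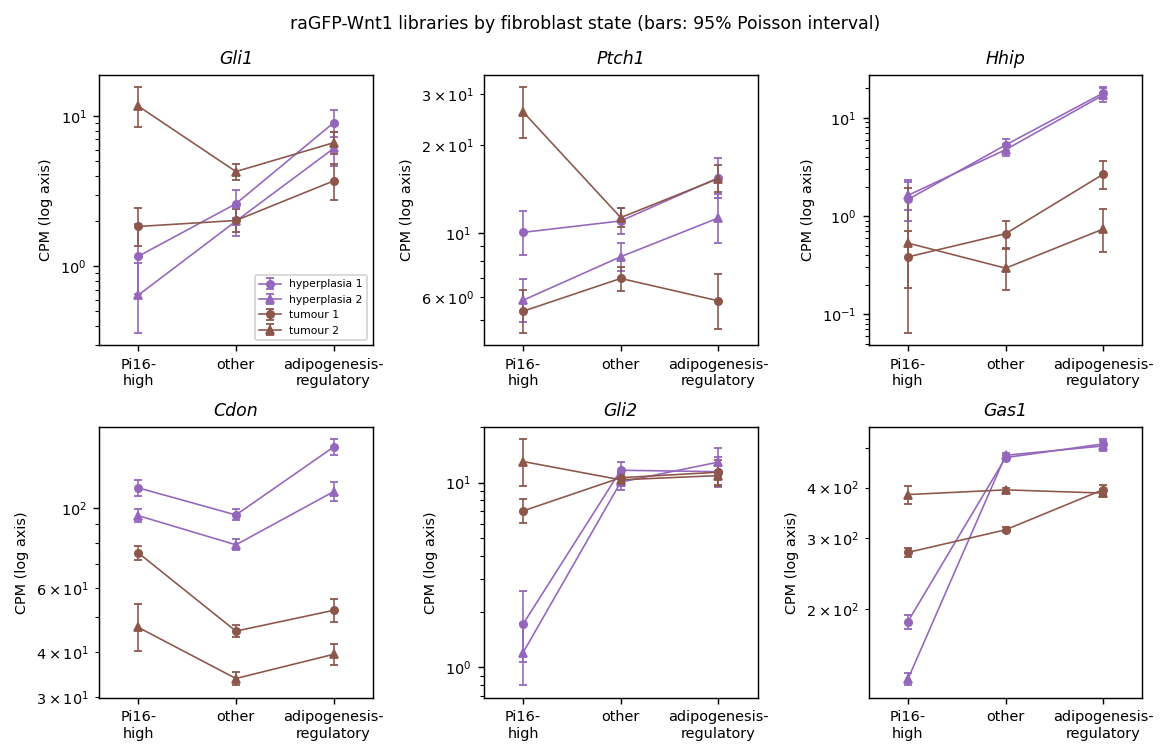
Level of 6 of the genes (CPM, log axes, 95% Poisson intervals) by state in hyperplasia 1 and 2 (purple) and tumour 1 and 2 (brown), with circles for mouse 1 and triangles for mouse 2. The hyperplasias rise in Gli1, Hhip and Gli2 from Pi16-high to other fibroblasts, while in tumour 2 Gli1 and Ptch1 are highest in its 266 Pi16-high cells.

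In the raGFP-Wnt1 libraries the same division into states gave fewer calls. Against other fibroblasts, Pi16-high cells had less Hhip, Gli2, Gas1 and Smo over the 4 libraries together, and adipogenesis-regulatory cells had more Hhip. Tumour 2 went the other way for Gli2, at 13 CPM in Pi16-high and 10.4 CPM in other fibroblasts, and for Hhip, at 0.531 CPM on 2 UMIs and 0.295 CPM. In limma-voom with the library as a block, 4 of 9 genes were called in Pi16-high cells, all lower, against 32.6% of 14096 genes. Hhip differed by -1.43 ± 0.29 (adjusted p = 0.0062), Gli2 by -1.54 ± 0.46 (adjusted p = 0.030), Gas1 by -0.89 ± 0.30 (adjusted p = 0.049) and Smo by -0.32 ± 0.09 (adjusted p = 0.022). None of the 4 calls held without hyperplasia 1 or without hyperplasia 2 (adjusted p from 0.082 to 0.28), nor did that of Gas1 without tumour 1 (adjusted p = 0.062). The Gas1 call was also lost with RLE scaling, with UMIs of other cell types allowed and at a mitochondrial limit of 5% (adjusted p = 0.054, 0.053 and 0.054), and those of Smo and Hhip with 2000 UMIs per cell (adjusted p = 0.14 and 0.098). Boc, not called in the main fit, was called lower at a Pi16 limit of 20 (-0.92, adjusted p = 0.010). It was also called with barcodes of both states left out (-0.82, adjusted p = 0.043), a setting chosen after seeing the data. In the adipogenesis-regulatory comparison 1 of 9 was called against 0.0426% of genes, and that was Hhip, at 1.76 ± 0.21 (adjusted p = 0.032), a call that was lost without hyperplasia 1, hyperplasia 2 or tumour 1 (adjusted p = 0.92, 0.72 and 0.17). Gli1 there was 0.96 ± 0.34 (adjusted p = 0.59).

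The 2 tumours were unlike each other. Gli1 in Pi16-high cells was 1.17 CPM in hyperplasia 1, 0.642 in hyperplasia 2, 1.84 in tumour 1 and 11.7 in tumour 2 (44 UMIs), whereas in other fibroblasts it was 2.61, 2.00, 2.02 and 4.28 CPM in the same order. Only tumour 2 was higher in Pi16-high than in other fibroblasts. Ptch1 in Pi16-high cells was 10.0, 5.86, 5.37 and 26 CPM, and tumour 2 was again the highest. Gli2 in Pi16-high cells was 1.71 and 1.20 CPM in the hyperplasias and 7.02 and 13 CPM in the tumours, so that the groups did not overlap. No test of the states between tumour and hyperplasia was made. Progenitor markers were low in the Pi16-high cells of tumour 2, as given above, and the 6 genes of the adipogenesis-regulatory rule summed to 159 to 373 CPM in Pi16-high cells of the tumours against 51.7 to 125 CPM in those of the wild-type libraries.

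Of the 34 other pathway genes tested, 5 were higher and 6 lower in the Pi16-high cells of the raGFP-Wnt1 libraries, against 32.6% of all genes called. None was called in the adipogenesis-regulatory ones, against 0.0426% of all genes. In Pi16-high cells the leading genes were as follows. Disp1 rose by 1.46 ± 0.18 (adjusted p = 0.00064), Gpr161, a ciliary receptor that holds the pathway back, by 0.55 ± 0.09 (adjusted p = 0.0022), and Scube1 was lower by -2.73 ± 0.34 (adjusted p = 0.00069).

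**Figure D4:**
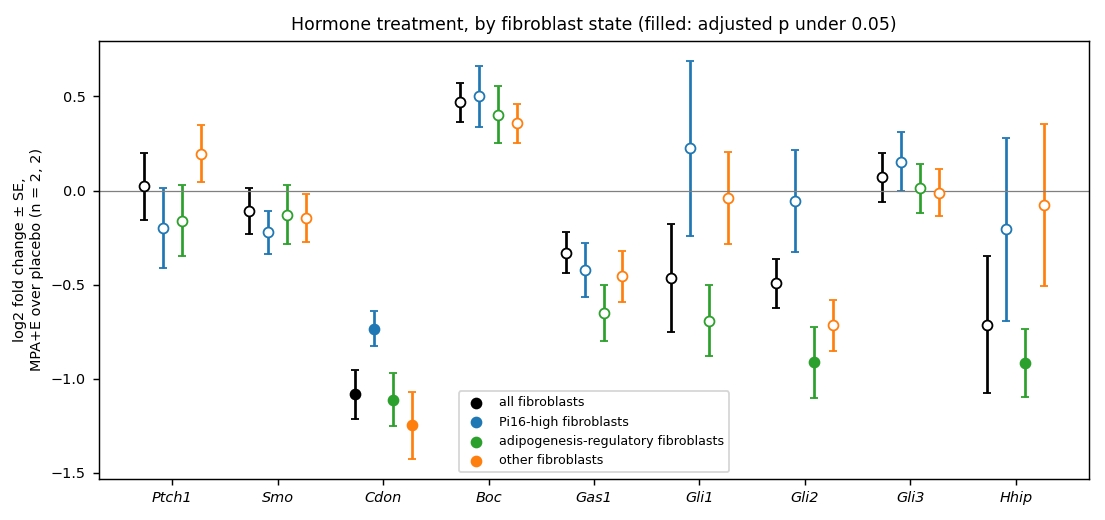
Log2 fold change of each gene under MPA+E against placebo, with its standard error (2 libraries per group), in all fibroblasts (black), Pi16-high (blue), adipogenesis-regulatory (green) and other fibroblasts (orange). Filled points passed an adjusted p of 0.05, which all 4 Cdon points did, Hhip and Gli2 did in green, and none of the others did.

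The effect of ovarian hormones was examined in 2 placebo and 2 MPA+E libraries. Cdon, the co-receptor, fell in all fibroblasts and in each of the 3 states, and Gli2 and Hhip fell in the adipogenesis-regulatory state. In all fibroblasts Cdon was 103 and 93.4 CPM in placebo 1 and 2, and 52.7 and 39.7 CPM in MPA+E 1 and 2. The groups did not overlap, and the log2 fold change was -1.08 ± 0.13 (edgeR, adjusted p = 0.017). It was the 1 of 9 called, against 4.42% of 15642 genes. Boc went the other way, at 24.5 and 25.2 CPM against 36.7 and 31.7 CPM, but its 0.47 ± 0.10 did not pass (adjusted p = 0.086). Gli1 was 3.41 and 2.54 CPM against 2.72 and 1.57 CPM and overlapped (-0.46 ± 0.28, adjusted p = 0.48). Ptch1 was 8.98 and 6.24 CPM against 8.54 and 6.77 CPM (0.02 ± 0.18, adjusted p = 0.97). Hhip was 7.0 and 6.31 CPM against 5.67 and 2.48 CPM (-0.71 ± 0.36, adjusted p = 0.40). Gli2, Gas1, Smo and Gli3 were at -0.49 ± 0.13, -0.33 ± 0.11, -0.11 ± 0.12 and 0.07 ± 0.13, and none passed (adjusted p = 0.12, 0.20, 0.73 and 0.84).

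Within states, Cdon fell by 1.25 ± 0.18 in other fibroblasts (adjusted p = 0.025), by 1.11 ± 0.14 in adipogenesis-regulatory (adjusted p = 0.0050) and by 0.73 ± 0.09 in Pi16-high cells (adjusted p = 0.012) on the log2 scale. At a Pi16 limit of 20 the call in Pi16-high cells was lost (-0.48, adjusted p = 0.060). Its levels were 91.6 and 85.3 CPM against 45.9 and 29.8 CPM in other fibroblasts, and 105 and 94.9 CPM against 60.2 and 57.6 CPM in Pi16-high cells. The fall in Pi16-high cells was the smaller in a test of the difference (0.55 ± 0.13, adjusted p = 0.040), where 1 of 9 was called against 5.26% of genes. At a mitochondrial limit of 5% this call was lost (0.53, adjusted p = 0.062). The difference was 0.27 without MPA+E 2, 0.57 without placebo 1 and 0.48 without placebo 2, and then no longer called (adjusted p = 0.17, 0.21 and 0.32).

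In the adipogenesis-regulatory state 3 of 9 were called, against 2.66% of 12378 genes, all lower under MPA+E. Gli2 was 18.3 and 13.5 CPM under placebo and 9.13 and 7.21 CPM under MPA+E (-0.91 ± 0.19, adjusted p = 0.048). Hhip was 30.7 and 37.7 CPM under placebo and 19.5 and 15.9 CPM under MPA+E (-0.92 ± 0.18, adjusted p = 0.038). Both groups were apart for each gene. Gli1, at 15.5 and 12.6 against 9.63 and 7.07 CPM, was apart as well but did not pass (-0.69 ± 0.19, adjusted p = 0.12), nor did Gas1 (-0.65 ± 0.15, adjusted p = 0.070). The target Ptch1 did not pass either, nor did Boc, Smo and Gli3, and the uncalled genes lay between -0.69 and 0.40. Gas1 was called in DESeq2, with 4 of 6 genes required and without the filter (adjusted p = 0.015, 0.017 and 0.0020), and Gli1 without the filter (adjusted p = 0.029). With the replicate number as a block, which no source says pairs the libraries, Gas1, Gli1 and Boc were called (adjusted p = 0.0048, 0.028 and 0.045). Boc was higher there, at 0.42, and Ptch1 was not called (-0.17, adjusted p = 0.49). In Pi16-high cells 1 of 9 was called against 6.29% of genes, and in other fibroblasts 1 of 9 against 3.91%, both times Cdon. Gli2 in other fibroblasts was -0.72 ± 0.13 (adjusted p = 0.051), and it was called in DESeq2, without the filter on low sums, at a mitochondrial limit of 5% and without MPA+E 2 (adjusted p = 0.0058, 0.019, 0.048 and 0.032).

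None of the Cdon calls in all, Pi16-high or other fibroblasts held without placebo 1 or without placebo 2 (adjusted p from 0.10 to 0.18), when a lone library stands for the group, although the log2 fold changes kept within -1.26 and -0.70. In the adipogenesis-regulatory state the Cdon call was lost without placebo 1 (adjusted p = 0.053), the Hhip call without placebo 1 or placebo 2 (-1.12 and -0.69, adjusted p = 0.051 and 0.24), and the Gli2 call without placebo 1, placebo 2 or MPA+E 2 (-0.75, -1.05 and -0.83, adjusted p = 0.31, 0.10 and 0.077). The Gli2 call was also lost in DESeq2 (adjusted p = 0.085) and with UMIs of other cell types allowed (adjusted p = 0.070), and the Hhip call with 4 of 6 genes required (adjusted p = 0.098). Hhip in all fibroblasts was called without MPA+E 1 (-1.37, adjusted p = 0.0090). Endothelial markers moved with the treatment, from 14.6 CPM summed in each placebo library to between 43.8 and 45.8 CPM under MPA+E, and pericyte markers from 48.0 to 48.1 CPM down to 19.5 to 21.0 CPM. Pecam1 and Rgs5, which define these types, were at 0 by the gate. Their part in these differences was not tested.

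Of the other pathway genes, 36 were tested in all fibroblasts and 2 were called, both lower, against 4.42% of all genes. They were Gpc3, a glypican that competes for the ligand (-0.74 ± 0.11, adjusted p = 0.035), and Disp1 (-0.64 ± 0.11, adjusted p = 0.042). The median over the list was -0.12 in all fibroblasts, beside -0.33 over the 9 genes and 0.01 over all genes.

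Hyperplastic gland and tumour were compared in the 2 raGFP-Wnt1 mice, in a fit that also held puberty and adult as 1 normal group. Hhip and Cdon were lower in the tumours, and the remaining 7 genes, the targets Gli1 and Ptch1 among them, did not pass. Hhip was 6.74 and 5.37 CPM in hyperplasia 1 and 2 and 0.878 and 0.422 CPM in tumour 1 and 2, with 90 and 37 UMIs in the tumours. The log2 fold change was -3.26 ± 0.71 (limma-voom, adjusted p = 0.022). Cdon was 109 and 88.4 CPM against 54.0 and 35.8 CPM, a change of -1.16 ± 0.24 (adjusted p = 0.020). For both genes each tumour was below each hyperplasia. These were 2 of 9 called, against 29.3% of 16302 genes, a share near the background.

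By state, with no test, Hhip in cells that met the adipogenesis-regulatory rule was 18 and 17.1 CPM in hyperplasia and 2.68 and 0.740 CPM in tumour, and in other fibroblasts 5.31 and 4.76 CPM against 0.662 and 0.295 CPM. In Pi16-high cells it rested on 10 UMIs in tumour 1 and 2 in tumour 2. Cdon in Pi16-high cells was 113 and 95.1 CPM against 75.1 and 46.7 CPM. Boc was 35.6 and 31.0 CPM in hyperplasia and 25.3 and 18.3 CPM in tumour (-0.62 ± 0.21, adjusted p = 0.066), and with the mouse as a block it was called (-0.63, adjusted p = 0.037). Gli1 was 3.45 and 2.10 CPM in hyperplasia and 2.21 and 5.22 CPM in tumour, moving down in mouse 1 and up in mouse 2 (0.35 ± 0.46, adjusted p = 0.59). Ptch1 did the same, with 11.6 and 7.88 CPM against 6.40 and 13 CPM (-0.06 ± 0.35, adjusted p = 0.91). Gli2, Gas1, Smo and Gli3 were at 0.29 ± 0.17, -0.16 ± 0.17, -0.08 ± 0.14 and -0.24 ± 0.20 (adjusted p = 0.23, 0.49, 0.70 and 0.39). The Hhip and Cdon calls were lost without hyperplasia 1 (adjusted p = 0.12 and 0.13) or hyperplasia 2 (adjusted p = 0.077 and 0.073).

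Of the 36 other pathway genes tested, 3 were higher and 6 lower in the tumours. Of all genes 29.3% were called, so that this share was near the background. Bmp4, a growth factor gene induced by the pathway in several tissues, was lower (-3.79 ± 0.47, adjusted p = 0.0067), and Scube2 (4.38 ± 0.57, adjusted p = 0.0071) and Ccnd1 (1.63 ± 0.23, adjusted p = 0.0088) were higher. The median was -0.21 over the list, -0.16 over the 9 genes and -0.01 over all genes.

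Against normal virgin gland, the puberty and adult libraries together, hyperplasia had 1 of 9 genes called against 14.0% of genes. Gas1 was 218 and 212 CPM in puberty and adult and 416 and 372 CPM in hyperplasia (0.83 ± 0.17, adjusted p = 0.031), a call that was lost when any of these 4 libraries was left out (adjusted p from 0.11 to 0.20). Boc, at 18.4 and 22.5 against 35.6 and 31.0 CPM, did not pass (0.67 ± 0.21, adjusted p = 0.082), and the other 7 genes lay between -0.05 and 0.48 (adjusted p from 0.21 to 0.95). Genotype, strain, sort and age cannot be told apart in this comparison. Of the 36 other pathway genes tested 5 were called, a share near the 14.0% of all genes. Bmp4, Bcl2 and Spop led them, at 3.76 ± 0.51, 1.05 ± 0.17 and 0.63 ± 0.13 (adjusted p = 0.014, 0.022 and 0.034).

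**Figure D5:**
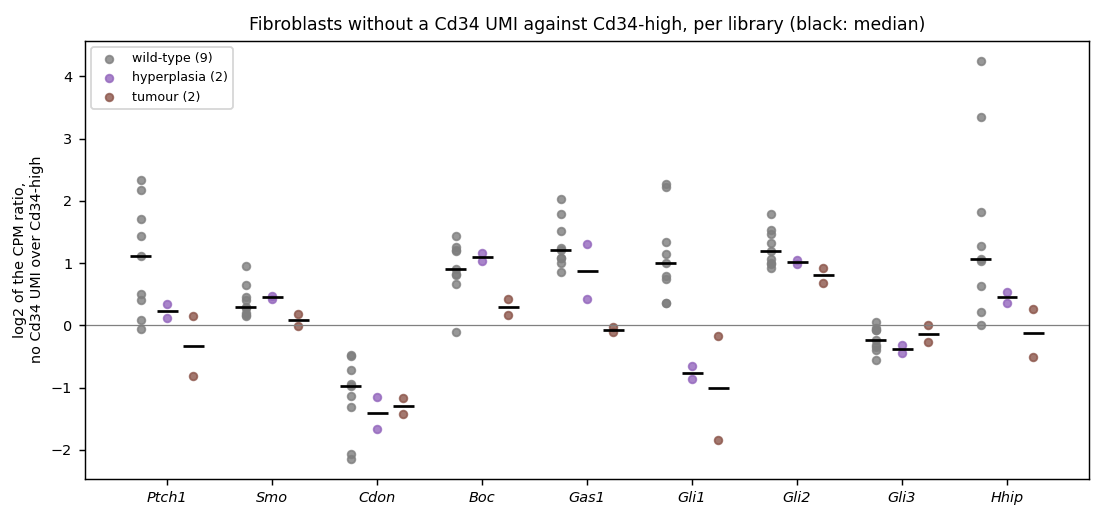
Log2 ratio of each gene's CPM in fibroblasts without a Cd34 UMI over Cd34-high fibroblasts, one point per library, in wild-type (grey), hyperplasia (purple) and tumour (brown) libraries, with the median in black. Gli1 is above 0 in all 9 wild-type libraries and below 0 in both hyperplasias and both tumours, and Cdon is below 0 in all 13.

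Cd34 encodes a surface protein of mesenchymal progenitors, and the study asked whether fibroblasts low in it have more Hedgehog activity. In normal glands it reported more Hedgehog transcripts in cells sorted as low in CD34 protein, and a Gli1-GFP reporter only in such cells. In tumours it saw no association between CD34 and Hedgehog activity. Here barcodes without a Cd34 UMI were compared with Cd34-high ones, with at least 5 Cd34 UMIs per 10000. These classes rest on RNA counts in single barcodes, a measure unlike the sorted protein. In the wild-type libraries the targets Hhip, Gli1 and Ptch1, the activator Gli2 and the co-receptors Gas1 and Boc were higher without Cd34, with Smo slightly so, and Cdon and Gli3 were lower. In the tumours, where the share called was no larger than that of all genes, Gli2 was higher and Cdon lower. The Cd34 effect on Gli1 and Gas1 in the tumours differed from that in the wild-type libraries. In limma-voom over all 13 libraries, all 9 genes were called in the wild-type libraries, 7 higher and 2 lower, against 50.5% of 13434 genes (25.5% higher and 25.1% lower). The differences were 1.56 ± 0.35 for Hhip (adjusted p = 0.0021), 1.23 ± 0.11 for Gas1 (adjusted p = 5.6e-07), 1.20 ± 0.09 for Gli2 (adjusted p = 8.5e-08) and -1.11 ± 0.15 for Cdon (adjusted p = 3.5e-05).

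Gli1 without Cd34 ranged from 1.89 through 3.57 to 11 CPM in the 9 wild-type libraries, and in Cd34-high cells from 1.39 through 1.78 to 2.61 CPM. It was higher in 9 of 9 libraries (1.02 ± 0.24, adjusted p = 0.0023). In hyperplasia 1 and 2 it was 1.63 and 1.40 CPM without Cd34 and 2.96 and 2.20 CPM in Cd34-high cells, and in tumour 1 and 2 it was 1.89 and 2.94 against 2.13 and 10.5 CPM. All 4 raGFP-Wnt1 libraries thus had less Gli1 without Cd34, although neither group passed on its own (-0.63 ± 0.54 in hyperplasia, adjusted p = 0.39, and -1.01 ± 0.38 in tumour, adjusted p = 0.053). The Cd34-high class of tumour 2 held only 277 cells, against 3119 to 8061 in the wild-type libraries. The tumour value rested on tumour 2, at -0.17 without it (adjusted p = 0.81) and -1.85 without tumour 1 (adjusted p = 0.024), and it passed at a mitochondrial limit of 5% (adjusted p = 0.040). With 2000 UMIs per cell it was -0.29, and the hyperplasia value turned to 0.13 (adjusted p = 0.66 and 0.86). The difference between tumour and wild-type libraries did pass for Gli1 (-2.04 ± 0.45, adjusted p = 0.0090) and for Gas1 (-1.30 ± 0.26, adjusted p = 0.0056), 2 of 9 called against 12.7% of genes. Without tumour 2 the Gli1 difference was -1.23 (adjusted p = 0.14), and without tumour 1 the Gas1 difference was -1.29 (adjusted p = 0.093).

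Hyperplasia had 5 of 9 called, against 37.3% of genes, with Boc at 1.19 ± 0.23 (adjusted p = 0.00097), Gli2 at 1.10 ± 0.18 (adjusted p = 0.00026), Gas1 at 0.95 ± 0.23 (adjusted p = 0.0057), Smo at 0.53 ± 0.12 (adjusted p = 0.0024) and Cdon at -1.31 ± 0.27 (adjusted p = 0.0015). The tumours had 2 of 9 called, against 32.1% of genes, a share not above that of all genes. They were Gli2 (0.73 ± 0.15, adjusted p = 0.0026) and Cdon (-1.31 ± 0.26, adjusted p = 0.0018), and both calls were lost without tumour 1 (0.90 and -1.17, adjusted p = 0.17 and 0.14). In hyperplasia the call of Gas1 was lost without hyperplasia 2 (0.53, adjusted p = 0.27), that of Smo likewise (0.52, adjusted p = 0.064), and that of Cdon without hyperplasia 1 (-1.03, adjusted p = 0.061).

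Barcodes without a Cd34 UMI were shallower in the wild-type libraries and in hyperplasia. Their median was 3230 to 7043 UMIs in the wild-type libraries against 3947 to 18433 for Cd34-high ones. In the tumours the medians were 10238 and 17254 UMIs without Cd34 against 10060 and 17842 UMIs for Cd34-high barcodes. Thinning every cell to 2000 UMIs also redrew the classes, since 1 Cd34 UMI then met the limit of the Cd34-high class and barcodes without one numbered 1737 in puberty in place of 703. In this setting 8 of the 9 genes were still called in the wild-type libraries, beside 4846 calls over all genes in place of 6790. Gli3 was the gene lost (-0.08 ± 0.05, adjusted p = 0.18). Differences were smaller, such as 0.51 ± 0.16 for Gli1 (adjusted p = 0.014) and -0.41 ± 0.07 for Cdon (adjusted p = 0.00013). The Gli1 difference between tumour and wild-type libraries was no longer called (-0.81 ± 0.39, adjusted p = 0.30), nor was Gli2 in the tumours (0.30, adjusted p = 0.37). The progenitor list, which holds Cd34 itself, was lower without Cd34, at a sum of 65.6 to 456 CPM against 2869 to 3977 CPM in the wild-type libraries, and genes of the adipogenesis-regulatory rule were higher, at 219 to 1212 CPM against 133 to 271 CPM. The upper end came from the placebo libraries, at 1125 to 1212 CPM without Cd34, which also had the highest Gli1 there, at 11 and 7.21 CPM. In the tumours these genes summed to 274 to 294 CPM without Cd34 and 166 to 304 CPM in Cd34-high cells. The part of the state mix in the Cd34 comparison was not tested.

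Of the 34 other pathway genes tested, 13 were higher and 9 lower without Cd34 in the wild-type libraries, against 50.5% of all genes called. Scube1 (3.51 ± 0.20, adjusted p = 1.0e-08) and Bcl2 (1.30 ± 0.11, adjusted p = 3.8e-07) were higher and Disp1 (-1.48 ± 0.13, adjusted p = 4.1e-07) lower. In hyperplasia 10 were higher and 6 lower, in the tumours 6 and 8, and in the difference between tumour and wild-type libraries 2 and 4. Of all genes 37.3%, 32.1% and 12.7% were called in these comparisons. The medians in the wild-type libraries were 0.05 over the list, 1.00 over the 9 genes and 0.00 over all genes.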

How the data were processed

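Stromal cells of 13 mouse mammary libraries were sequenced with a droplet 3′ kit, and the deposited values are unnormalized UMI counts for each gene in each barcode, from the filtered output of Cell Ranger 6.1.2 on mm10, per the submitters' processing notes. Doublet calls of the study were not used, and no caller was run here beyond the gates on genes and markers. The genes and lists were chosen with earlier results of these data known.

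Counts were summed per library and class. Wild-type state and hormone comparisons used edgeR 4.0.16 (quasi-likelihood, TMM, filterByExpr), and the raGFP-Wnt1 states, tumour, hyperplasia and Cd34 comparisons limma-voom (limma 3.58.1), with the library as a block where classes of 1 library were compared. voom fits also required an expected 1 UMI in the smallest sum, a filter added after the test on simulated data. P-values were adjusted by Benjamini-Hochberg over all genes tested. Placebo, MPA+E, hyperplasia and tumour have 2 libraries each, and hormone and raGFP-Wnt1 state p-values measure only the spread between these libraries. The fit of tumour, hyperplasia and normal gland joined puberty and adult as 1 group, so that their difference enters its p-values. The Cd34 fit held all 13 libraries, so that the spread of the 9 wild-type libraries enters its hyperplasia and tumour p-values. Replicate pairs differed by far more than sampling noise. Hyperplasia and tumour of 1 number came from 1 mouse per the labels, so the numbers pair the samples, and their deviations from the group means correlated at 0.0954 over 16001 genes. All 9 genes were tested in each comparison and, where not given by value, are given by count or range, with up to 3 of a fixed pathway list by smallest p. For like patterns the genes had a mean of at least 10 CPM, on log2(CPM + 1). Alternatives were another scaling, no filter, DESeq2 1.42.0, other gates and state limits, 2000 UMIs per cell, a replicate block and each library left out. Intervals and floors (3 counts) cover counting error only. Positions are from GENCODE M21 and RefSeq on GRCm38. The values of 1 gene of the pathway list are not reported here.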

Additional observations from a re-analysis of the deposited data

Results flagged for a closer look

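Differences between groups in the effect of 1 contrast were flagged for 3 genes. The fall of Cdon under MPA+E was smaller in Pi16-high than in other fibroblasts, with a difference of 0.55 on the log2 scale. The Cd34 effect on Gli1 and Gas1 differed between tumour and wild-type libraries, by -2.04 and -1.30. Both were tested in the fits above, and each of these calls depended on single libraries, as given there.

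Gli1 and Gas1 were also flagged because every library of a group moved one way and every library of another group the opposite way between fibroblasts without a Cd34 UMI and Cd34-high ones. For Gli1 the mean log2 ratio of CPM was -0.76 over the 2 hyperplasias and -1.01 over the 2 tumours, while all 9 wild-type libraries were above 0. For Gas1 it was -0.0673 over the 2 tumours, against positive ratios in the 9 wild-type libraries and in both hyperplasias. The differences of hyperplasia from the wild-type libraries for Gli1, and from the tumours for Gas1, were not tested.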

How the results depend on the processing

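Of the counts of called genes, those of both wild-type state comparisons and of the wild-type Cd34 comparison kept within 1.5 times of the value above under every alternative run. No gene called above changed its direction under any alternative. Among differences of at least 0.5 on the log2 scale that were not called, 1 changed its sign, Gli1 in the Cd34 comparison of hyperplasia, at 0.13 with 2000 UMIs per cell. In the raGFP-Wnt1 adipogenesis-regulatory comparison no gene was called with 4 of 6 genes required, a mitochondrial limit of 5%, no filter on low sums or barcodes of both states left out (the last chosen after seeing the data). With 2000 UMIs per cell 1 gene was called in the Cd34 comparison of the tumours (Gli2 was lost) and 1 in its difference from the wild-type libraries. Calls over all genes then fell from 4310 to 1818 and from 1708 to 521. Under MPA+E in all fibroblasts 2 genes were called by DESeq2 and 2 without the filter, while calls over all genes rose from 692 to 1358 and 970. In other fibroblasts DESeq2, no filter and the mitochondrial limit of 5% each gave 2, with 924, 810 and 575 calls over all genes in place of 571. In adipogenesis-regulatory cells no filter gave 5, while calls over all genes rose from 329 to 929. In Pi16-high cells a Pi16 limit of 20 gave 0, while calls over all genes fell from 849 to 645. The difference between Pi16-high and other fibroblasts had 2 calls without the filter and 0 at the mitochondrial limit of 5%. Calls over all genes for this difference were 1469 and 724, in place of 774.

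Placebo and MPA+E share replicate numbers, with deviations that correlated at 0.396, but no source says that the numbers pair the libraries. With the replicate number as a block 3 genes were called in all fibroblasts, 3 in Pi16-high, 6 in adipogenesis-regulatory and 4 in other fibroblasts, while the calls over all genes rose from 692 to 2441, from 849 to 2356, from 329 to 1017 and from 571 to 1763. The calls gained were Boc, higher in each case, with Gli2 in all fibroblasts and Gas1 in Pi16-high cells. Gli1 and Gas1 were gained in adipogenesis-regulatory cells, and Gli2 and Gas1 in other fibroblasts, all lower. For tumour against hyperplasia the block on the mouse called 3 and changed no other call than that of Boc.

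Leaving out 1 library at a time changed the MPA+E calls, within and between states, over all genes as well as among the 9. It gave 0 to 4 for tumour against hyperplasia and 0 to 2 for hyperplasia against normal gland, while the calls over all genes ran from 242 to 7120 and from 1 to 4810, so that these counts say nothing particular to the 9 genes. It gave 0 to 5 and 0 to 1 for Pi16-high and adipogenesis-regulatory cells of raGFP-Wnt1 libraries. For Pi16-high cells, calls over all genes fell from 4589 to 1764 without hyperplasia 1 and to 1859 without hyperplasia 2. For adipogenesis-regulatory cells they fell from 6 to 0, 1 and 1 without hyperplasia 1, hyperplasia 2 and tumour 1. For Cd34 in hyperplasia and tumour, and for the difference of tumour from wild-type, calls also changed both over all genes and among the 9. A fit without 1 of 2 libraries has fewer samples, and the other causes were not tested. Gli1 rested on as few as 8 UMIs in Pi16-high cells of a library, which limits its precision there.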
